A study of Arabidopsis thaliana with 18 samples.

Results

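The regions described here are H3K27me3 peaks of Arabidopsis thaliana shoots whose midpoint lies in the chromatin around the 5 centromeres. On the TAIR10 build these pericentromeric windows cover 11.5 to 17.7 Mb of chromosome 1, 1.1 to 7.2 Mb of chromosome 2, 10.3 to 17.3 Mb of chromosome 3, 1.5 to 6.3 Mb of chromosome 4 and 9 to 16 Mb of chromosome 5. They add up to 31.1 Mb, against 88.0 Mb of chromosome arms. Across 9 deposited peak lists they hold 7925 of 48745 nuclear peaks, and the other 40820 peaks lie in the arms of the same lists. The windows were set by position alone, without any measured value.

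Shoots of 14-day-old seedlings on sucrose medium were used, grown with 8 h of light and 16 h of dark. Peak lists came from 1 library each of clf C24, clf F1 and clf Col, and from 2 libraries each of wild-type C24, F1 and Col. The C24 clf mutant was induced with ethyl methanesulfonate and carries a D-to-N change in the SET domain of CURLY LEAF (CLF), the Col clf mutant carries the T-DNA insertion SALK_139371, and the clf F1 is the cross of both mutants, so each clf group rests on a single allele or on the combination of both. Wild-type F1 is labelled F1 Col X C24. The mRNA values came from C24 clf, clf F1 and Col clf, with 3 libraries each, and wild-type mRNA was not analysed here.

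H3K27me3, a methylated form of histone H3, is written by the Polycomb repressive complex PRC2, in which CLF and its paralog SWINGER are the catalytic subunits of the shoot. In Arabidopsis the mark covers silent developmental and stress-response genes, mostly in the gene-rich arms. The chromatin around the centromeres is packed with transposons and is known instead for DNA methylation and methylated H3K9, with genes scattered between the repeats. A peak there can thus lie on an island gene, on a repeat or on a copy of other sequence.

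The lists differ in depth and shape, and this bears on every comparison. Nuclear peaks numbered 2879 in the shortest list, wild-type Col replicate 2, and 6353 in the longest, clf C24, and the tags within them summed to between 840780 and 8266237 per list. The wild-type replicate 2 lists stop at a score of exactly 3100 and have lower scores and fewer tags than the replicate 1 lists. CLF mRNA (AT2G23380) was 7.56 ± 0.68 RPKM (reads scaled by gene length and library size) in C24 clf, 4.12 ± 0.21 RPKM in clf F1 and 1.19 ± 0.19 RPKM in Col clf (SD, n = 3 each). The point mutant therefore had more CLF transcript than the insertion mutant, with a difference of 1.97 on the log2(RPKM + 1) scale and a limma adjusted p of 2.18e-08. Of 4 shoot markers, RBCS1A, LHCA3 and RCA were at 2495 RPKM or more in every library and LHCB1.3 was listed at 0, so a value listed at 0 does not show that a transcript was absent. Of 5 root markers, PYK10 was at 210 to 216 RPKM in C24 clf, 130 to 148 RPKM in clf F1 and 94.2 to 107 RPKM in Col clf, and the other 4 were at 0.06 RPKM or less. In whole shoots, fewer cells with the mark and less mark per cell cannot be told apart, and reads of C24 were placed on the Col-derived TAIR10 sequence, so a C24 sequence that differs and a C24 site without the mark cannot be told apart either.

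A stretch of the chromosome 2 window held peaks of a different kind, and its bounds were set after the peaks had been seen. Between the first peak start and the last peak end, at chr2:3259428-3535709, the lists held 819 peaks in all, a mean of 91 peaks per list. The Col reference sequence is known to hold a copy of much of the mitochondrial genome near the centromere of chromosome 2, and the stretch holds 97 protein-coding entries, 54 pseudogenes and 23 of the 62 tRNA entries of all windows. Peaks in it numbered 101 in clf C24, 98 in clf F1 and 99 in clf Col. They numbered 86 and 101 in wild-type C24, 57 and 93 in wild-type F1 and 82 and 102 in wild-type Col. That is 5.87% to 20.6% of a list's pericentromeric peaks, with the highest share in the shortest list, wild-type Col replicate 2. These peaks were short, with a median width of 440 to 494 bases per list. Peaks on the mitochondrial genome itself numbered 9 to 24 per list. Whether reads of the organelle make up these peaks was not tested, and the main comparisons that follow are given with and without the stretch.

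Pericentromeric peaks were thin at the centre of the windows and became about as dense as arm peaks at the edges, with both edges pooled. In the innermost zone, up to 0.25 of the way from the centre to either edge, the 9 lists averaged 13.5 peaks per Mb. The strip of 0.5 Mb just inside each edge averaged 49.5 peaks per Mb, and the strip of 0.5 Mb just outside averaged 49.4 peaks per Mb, with both edges pooled. In bins of 0.25 of the way from centre to edge, the edges differed. At the lower-coordinate edge the bin outside averaged 51.8 peaks per Mb and the bin inside 39.7. At the higher-coordinate edge they averaged 50.5 and 54.8. Without the chromosome 2 stretch, the 4 innermost bins ran from 7.77 to 12.6 peaks per Mb. Genes thinned out in parallel: the windows hold 109 protein-coding genes per Mb and the arms 273, while pseudogene entries, used here because the gene table has no class for transposable elements, number 121 per Mb in the windows and 12.1 per Mb in the arms. Counts in the innermost zone, without the stretch, were 57 peaks in clf C24, 59 in clf F1 and 57 in clf Col. The wild-type lists held 49 and 133 in C24, 49 and 57 in F1 and 30 and 64 in Col. In each wild-type pair the higher count was that of replicate 2, whose lists have the fewest tags.

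**Figure D1:**
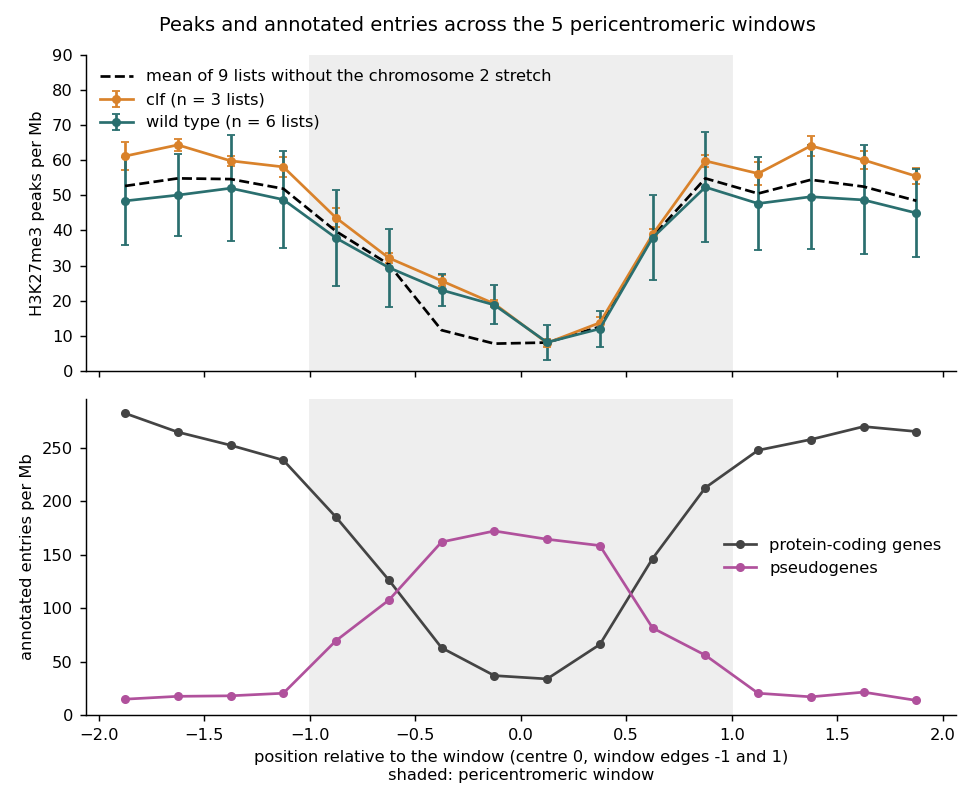
Peak density (upper panel, peaks per Mb, mean and SD over 3 clf and 6 wild-type lists) and annotated entries per Mb (lower panel) against position relative to the windows, averaged over 5 chromosomes. The bins on either side of the centre averaged 18.9 and 8.09 peaks per Mb, and without the chromosome 2 stretch (dashed line) 7.77 and 8.09, well below the arms.

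A smaller share of the H3K27me3 peaks lay in the windows in clf than in wild type. Pericentromeric peaks made up 959 of 6353 peaks in clf C24 (15.1%), 952 of 6305 in clf F1 (15.1%) and 897 of 5945 in clf Col (15.1%). In wild type they made up 1073 of 6244 and 1090 of 6314 peaks in C24 (17.2% and 17.3%), 971 of 5822 and 683 of 4046 in F1 (16.7% and 16.9%), and 805 of 4837 and 495 of 2879 in Col (16.6% and 17.2%). All 3 clf lists lay below all 6 wild-type lists. The exact binomial 95% intervals, which cover counting error only, ran from 14.2% to 16.0% over the clf lists and from 15.6% to 18.6% over the wild-type lists.

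The mean share was 15.1 ± 0.00548% in clf (SD, n = 3) and 17.0 ± 0.276% in wild type (SD, n = 6), a difference of -1.88 percentage points. The SD in clf is far below the counting error of a single list, 14.2% to 16.0% in clf C24, so it understates the spread. The test that follows did not take accession into account. The exact permutation test over libraries, two-sided, gave p = 0.0238, the smallest that 3 against 6 libraries allow, and 0.0397 after Benjamini-Hochberg adjustment over 5 comparisons between groups of lists. Bases under peaks went the same way, with 12.6 ± 0.443% in clf and 14.4 ± 0.817% in wild type (difference -1.79, exact permutation p = 0.0238). Tags in peaks gave 11.4 ± 0.589% in clf and 14.2 ± 2.04% in wild type (difference -2.80, exact permutation p = 0.0238). The tags had the widest spread in wild type, where the C24 and Col replicate 2 lists stood at 17.7% and 15.4%.

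The difference was of similar size without the chromosome 2 stretch. The share of peaks was then 13.7 ± 0.0553% in clf and 15.3 ± 0.731% in wild type (difference -1.64). Bases gave 12.1% in clf and 13.8% in wild type (difference -1.67), and tags gave 10.8% in clf and 13.4% in wild type (difference -2.59). Each exact permutation p was again 0.0238 (n = 3 and 6). Against the replicate 1 wild-type lists alone the difference in the share of peaks was -1.74, and against the replicate 2 lists alone -2.02, both with the exact permutation p of 0.1 that is the smallest for 3 against 3. In tags the difference was -1.42 against the replicate 1 lists and -4.18 against the replicate 2 lists, so its size differed with the wild-type lists used. With the windows narrowed by 1 Mb on each side the difference in tags was -2.07, with an exact permutation p of 0.167 (n = 3 and 6), which no longer passed. When each list was cut to its 2879 highest-scoring peaks the share of peaks differed by -2.10, with an exact permutation p of 0.238 (n = 3 and 6), which no longer passed. The number of pericentromeric peaks in a list was not itself lower in clf: 897 to 959 in the clf lists, against 495 to 1090 in the wild-type lists, so the share measures how peaks were divided between windows and arms.

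**Figure D2:**
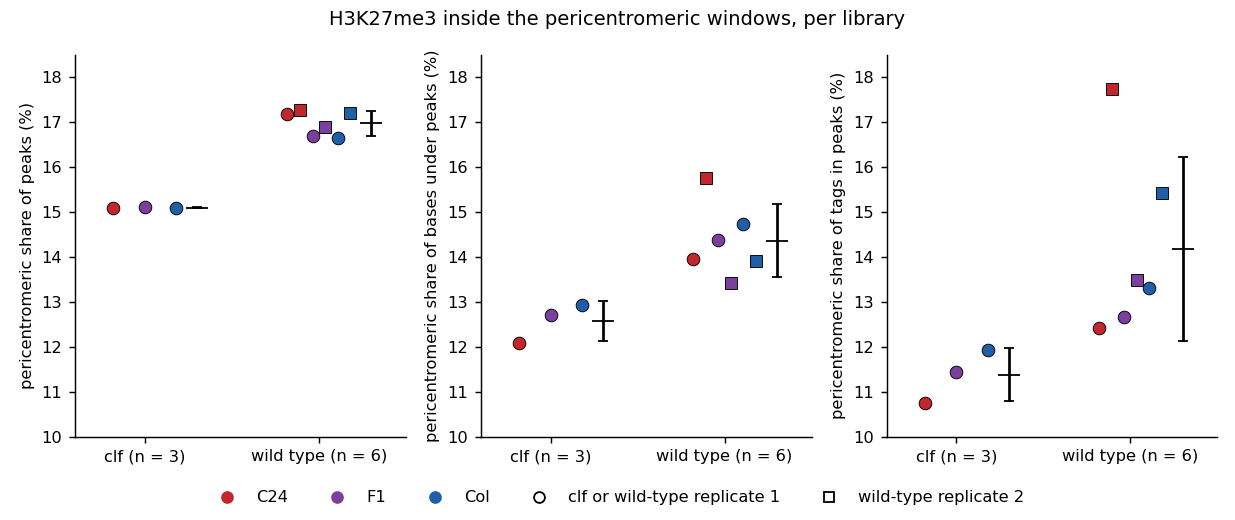
Pericentromeric share of peaks, of bases under peaks and of tags in peaks (%, axes cut at 10%), 1 point per list, with mean and SD. Each clf list lies below every wild-type list in all 3 panels, and the squares of the wild-type replicate 2 lists set the upper end for tags.

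By chromosome, the lower share in clf was measured on chromosomes 1, 3 and 4. The windows held 11.2 ± 0.126% of chromosome 1 peaks in clf and 12.3 ± 0.961% in wild type. On chromosome 3 they held 17.6 ± 0.734% in clf and 20.1 ± 1.40% in wild type, and on chromosome 4, whose window includes the heterochromatic knob, 9.93 ± 0.261% in clf and 12.3 ± 1.17% in wild type (SD, n = 3 and 6). In these 3 the clf and wild-type lists did not overlap, and each had an exact permutation p of 0.0238, adjusted over 5 chromosomes to 0.0397. Chromosome 2 gave 21.7% in clf and 24.8% in wild type (exact permutation p = 0.0952, n = 3 and 6), and without the stretch 13.9 ± 0.225% and 15.8 ± 1.09% (exact permutation p = 0.0238). Chromosome 5 gave 15.9 ± 0.605% in clf and 16.6 ± 1.18% in wild type, a difference of -0.68 with an exact permutation p of 0.405 (n = 3 and 6). Peak density in the windows was highest on chromosome 2, at a mean of 36.5 peaks per Mb over the 9 lists, and lowest on chromosome 4, at 19.3 peaks per Mb. Without the stretch, the rest of the chromosome 2 window held a mean of 22.9 peaks per Mb, against 27.7 on chromosomes 1 and 3 and 28.4 on chromosome 5.

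Between the accessions, and between the hybrid and its parents, no difference in the wild-type share could be shown. Wild-type C24 averaged 17.2 ± 0.0557% and wild-type Col 16.9 ± 0.39% (SD, n = 2 each), a difference of 0.306 with an exact permutation p of 0.667, where 2 against 2 libraries cannot go below 0.333. The sign depended on the peaks used: the difference was -0.113 for peaks with a score of at least 100, -0.553 with the windows narrowed by 1 Mb on each side, and 1.29 without the chromosome 2 stretch. Wild-type F1 averaged 16.8 ± 0.143% (SD, n = 2) and the 4 parental lists 17.1 ± 0.288%, a difference of -0.291 with an exact permutation p of 0.4, or 0.0640 without the stretch. The smallest p that 2 against 4 libraries allow is 0.133.

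Most pericentromeric peaks of wild type had a counterpart in clf. Of the peaks called in both wild-type replicates, 500 of 546 pericentromeric peaks in C24 were overlapped by a clf C24 peak (91.6%, against 93.8% of arm peaks). In F1 this held for 479 of 510 (93.9%, against 96.3% in the arms) and in Col for 323 of 328 (98.5%, against 98.3% in the arms). The mean difference over the 3 accessions was -1.48 percentage points, without a test, since 3 pairs cannot reach a small p. Each accession has 1 clf list, and the difference depended on the wild-type peaks used. Where a wild-type list was left out, all peaks of the other replicate of that accession were used, including those called in a single replicate. The difference was then -2.44 and -3.69 without wild-type C24 replicate 1 or 2. It was -3.17 and -3.20 without F1 replicate 1 or 2, and -3.80 and -3.15 without Col replicate 1 or 2. Without the chromosome 2 stretch the shares kept were 90.5% in C24, 93.2% in F1 and 98.0% in Col.

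Pericentromeric peaks were narrower than arm peaks of the same list in all 9 lists. Median widths in the windows were 1252 bases in clf C24, 1432 in clf F1 and 1476 in clf Col, against 1628, 1756 and 1779 bases in the arms of those lists. In the wild-type lists they ran from 810 to 2574 bases, against 934 to 2976 bases in the arms. Averaged over lists the medians were 1507 and 1853 bases, a mean log2 ratio of -0.30 (SD 0.0745, n = 9 lists). An exact sign-flip permutation test within lists gave p = 0.00391, the smallest for 9 lists, and 0.0137 adjusted over 7 comparisons of this kind. Without the short peaks of the chromosome 2 stretch the pericentromeric mean was 1627 bases and the log2 ratio -0.19, with the same exact p.

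The strength of the peaks differed less than their width, and the 2 measures of strength pointed in opposite directions. The fold enrichment that the authors gave each peak had a mean of medians of 4.27 in the windows and 4.07 in the arms, a log2 ratio of 0.07, higher in 7 of 9 lists (exact sign-flip permutation p = 0.0156, adjusted 0.0273). That difference came with the chromosome 2 stretch: without it the log2 ratio was 0.03 and the exact sign-flip permutation p was 0.168. Tags per kb averaged 237 in the windows and 256 in the arms (log2 ratio -0.10, exact sign-flip permutation p = 0.00781, adjusted 0.0182). They were lower in 8 of 9 lists as deposited and in all 9 without the stretch (log2 ratio -0.15, exact sign-flip permutation p = 0.00391). The tag difference did not pass with a score of at least 100, where the log2 ratio was -0.07 and the exact sign-flip permutation p was 0.0859 over 9 lists.

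**Figure D3:**
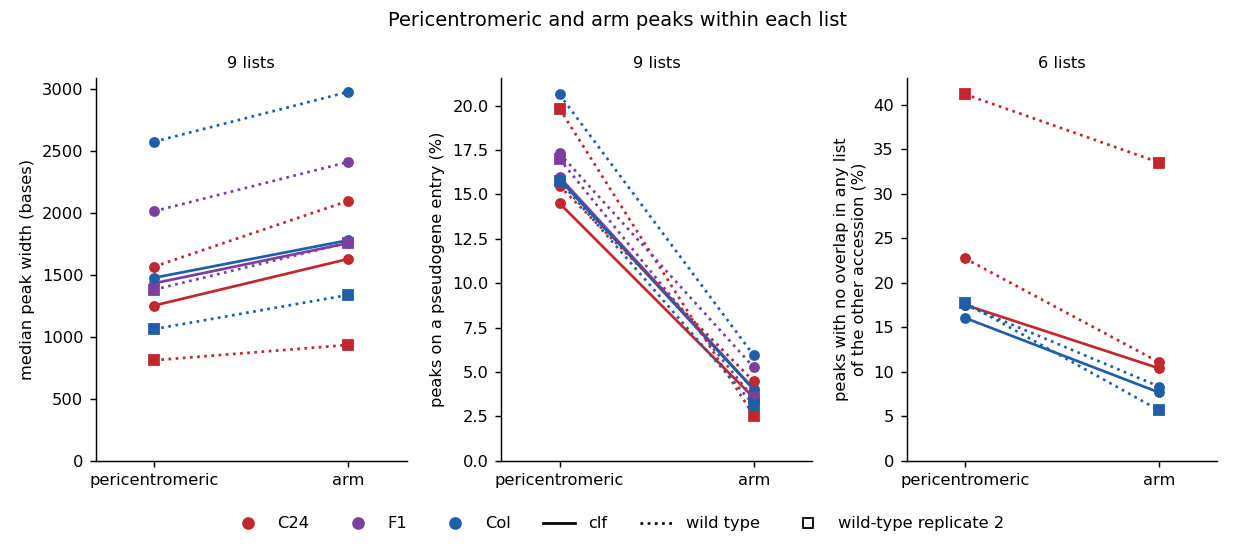
Median peak width in bases, share of peaks on a pseudogene entry and share of peaks with no overlap in any list of the other accession, for pericentromeric and arm peaks joined by a line per list. In each list shown, width was lower and the other 2 shares were higher in the windows, while the wild-type replicate 2 lists (squares) had narrower peaks in both zones than their replicate 1 partners.

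What lies under the peaks differed between the zones. A protein-coding entry was overlapped by 64.04% to 75.4% of pericentromeric peaks per list, against 83.8% to 91.7% of arm peaks. A pseudogene entry was overlapped by 16.9 ± 2.05% of pericentromeric and 4.05 ± 1.05% of arm peaks (SD, n = 9 lists), a difference of 12.9 percentage points that had the same sign in 9 of 9 lists (exact sign-flip permutation p = 0.00391, adjusted 0.0137). Without the stretch the pericentromeric share was 15.1% and the exact p the same. Pseudogene entries are also far denser there, and read from the side of the annotation the order turns round: 1.64% to 4.85% of pericentromeric pseudogenes carried a peak per list, against 7.22% to 24.7% of those in the arms. No annotated entry of any kind lay under 9.70% to 18.8% of pericentromeric peaks, against 4.46% to 10.9% of arm peaks.

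Set against the genes available, H3K27me3 was about as common in the windows as in the arms. Of protein-coding genes, 20.03 ± 4.99% lay under a peak in the windows and 20.3 ± 5.26% in the arms (SD, n = 9 lists). The mean difference of -0.298 percentage points had an exact sign-flip permutation p of 0.336, and its sign was positive in 5 of 9 lists. The 3 clf lists were at -1.37 in C24, -1.30 in F1 and -0.934 in Col. Among wild-type lists, C24 was at 0.786 and 0.696, F1 at 0.139 and 0.499, and Col at -1.23 and 0.0367. All 3 clf lists and a single wild-type list, that of Col replicate 1, were thus negative, and the difference between clf and wild type of -1.36 had an exact permutation p of 0.0476 (n = 3 and 6), adjusted to 0.238 over the 5 contrasts tested in this way. Without the chromosome 2 stretch, whose mitochondrial copies are annotated as genes, the overall difference was -1.02, negative in 8 of 9 lists, with an exact sign-flip permutation p of 0.0273. With the windows narrowed by 1 Mb on each side 17.0% of pericentromeric genes carried a peak, a difference of -3.37 with an exact sign-flip permutation p of 0.00391 (n = 9 lists), so the near-equal share describes the windows with their gene-rich flanks.

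Pericentromeric peaks lacked a counterpart in the other accession more often than arm peaks. Of the peaks in clf C24, 17.5% in the windows and 10.4% in the arms overlapped no peak in any of the 3 Col lists. In clf Col 16.1% in the windows and 7.67% in the arms overlapped no peak of C24. The wild-type C24 lists gave 22.7% and 41.2% in the windows, against 11.1% and 33.5% in the arms. The wild-type Col lists gave 17.5% and 17.8% in the windows, against 8.33% and 5.66% in the arms. All 6 lists agreed in sign. The mean was 22.1% in the windows and 12.8% in the arms, a difference of 9.36 percentage points with an exact sign-flip permutation p of 0.03125, the smallest for 6 lists, and 0.04375 after adjustment. Without the chromosome 2 stretch it was 11.8, again with p = 0.03125 in the exact test. This comparison was added after the region counts had been seen. All lists of an accession were set against the same lists of the other, so the 6 values are not independent and the p-values can be too small. A peak also did not need to recur in its own accession. In wild-type C24 replicate 2, with the highest share, 57.9% of pericentromeric peaks were overlapped in replicate 1.

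Recurrence in the other wild-type replicate differed little between the zones, and its test was missed with all peaks included. Of pericentromeric peaks, 59.1 ± 14.5% were overlapped in the other replicate, against 60.9 ± 15.9% of arm peaks (SD, n = 6 lists), a difference of -1.77 with an exact sign-flip permutation p of 0.0625. Without the stretch, whose peaks recur in most lists, the pericentromeric share was 56.0% and the difference -4.83, with an exact sign-flip permutation p of 0.03125. Each replicate pair enters this test from both sides, so the 6 values are not independent and both p-values can be too small. Counted as pairs, the lists are too few for the test to pass. Replicate lists differ in length, and 40.7% of pericentromeric peaks of wild-type Col replicate 1 had a partner in the shorter replicate 2, against 73.1% in the other direction.

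To follow single loci, peaks of all lists that overlapped by at least 1 base were merged into 1681 pericentromeric and 7765 arm regions. Regions found in all 9 lists numbered 192 in the windows (11.4%) and 1251 in the arms (16.1%), and 42 of the 192 lay in the chromosome 2 stretch, where 45.2% of 93 regions were in every list. Outside it the share was 150 of 1588 (9.45%). Regions found in a single list numbered 507 in the windows (30.2%) and 2103 in the arms (27.1%). Regions of all 9 lists had a median width of 3830 bases and a protein-coding entry in 84.4%, and those of a single list 885 bases and 52.5%, where a region merged from more lists is wider by construction. A pseudogene entry lay in 28.1% of the regions of all 9 lists.

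The 10 widest regions found in all 9 lists were all outside the stretch, and in 5 of them no gene with an mRNA value exceeded 0.38 RPKM. The widest, at chr5:15387514-15397552, spans SPH8, a member of a plant self-incompatibility protein family, and CYP735A1, a cytochrome P450 that hydroxylates cytokinins. Its highest fold enrichment was 7.39 in clf C24, 8.39 in clf F1 and 7.96 in clf Col. In wild type it was 4.48 and 4.74 in C24, 4.59 and 3.08 in F1 and 3.51 and 2.31 in Col. All 3 clf values exceeded all 6 wild-type values, in lists whose median pericentromeric fold was also higher in clf, at 5.25 to 6.10, against 2.75 to 4.41 in wild type. mRNA of SPH8 and CYP735A1 was listed at 0 in all 9 mRNA libraries.

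The next regions carry transcription factors and transporters. The region chr3:16530674-16540636 covers TCP16, a TCP-family transcription factor, and GATA14, a GATA factor, with 25 peaks over the 9 lists and mRNA of both genes listed at 0 throughout. The region chr3:10610806-10620577 covers ABCB16, an ATP-binding cassette transporter, at 0.04 RPKM or less, and chr1:12702232-12711409 covers MYB93, a MYB factor known from lateral root development, at 0.27 RPKM or less. ALD1, the aminotransferase that starts pipecolic acid synthesis in systemic immunity, lies in chr2:5766159-5775078 with mRNA at 0.16 RPKM or less. Others, AT2G15325 at chr2:6668770-6677832, AT2G15780 at chr2:6867979-6877018 and AT1G43010 at chr1:16149348-16158242, were listed at 0 in all libraries.

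A wide region did not always mean a silent gene. A gene in a merged region need not itself lie under a peak of every list. TPC1, the vacuolar cation channel, lies in the region chr4:1585499-1594369 and had 70.5 RPKM in C24 clf, 65.3 RPKM in clf F1 and 66.8 RPKM in Col clf. XYP2, a xylogen-type arabinogalactan protein that shares a region with ALD1, had 14.9 RPKM in C24 clf, 13.1 RPKM in clf F1 and 15.05 RPKM in Col clf. AT3G45160, between TCP16 and GATA14, had 19.96 RPKM in C24 clf, 28.01 RPKM in clf F1 and 28.6 RPKM in Col clf, and fell in C24 clf against Col clf with a log2 difference of -0.50 and a limma adjusted p of 0.00337. The region chr1:13314001-13322884 covers AT1G35830, at 1.58 RPKM in C24 clf, 1.87 RPKM in clf F1 and 1.503 RPKM in Col clf. Merging over 9 lists can make a region wider than its peaks in a list: in the TPC1 region the bases under a peak ranged from 964 in clf Col to 8772 in wild-type C24 replicate 1.

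Of these 10 regions, 5 also overlap a pseudogene entry and are the 5 widest of that kind. They are the regions of SPH8, ABCB16, MYB93, AT2G15325 and AT2G15780. The pseudogene in the ABCB16 region, AT3G28350, had 2.19 RPKM in C24 clf, 1.19 RPKM in clf F1 and 0.247 RPKM in Col clf, and was higher in C24 clf with a log2 difference of 1.33 and a limma adjusted p of 5.82e-05. The other 4 pseudogenes were listed at 0 in all libraries. AT3G28370, a protein-coding gene of the same region, was also higher, with 15.95 RPKM in C24 clf, 12.01 RPKM in clf F1 and 9.95 RPKM in Col clf (log2 difference 0.63, limma adjusted p 2.44e-05).

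Few regions separated clf from wild type completely. Regions in all 3 clf lists and in no wild-type list numbered 14 in the windows (0.833%, or 13 of 1588, 0.819%, without the chromosome 2 stretch) and 121 in the arms (1.56%). The widest of the 14, at chr1:17491196-17494932, covers BGLU34, a beta-glucosidase gene with mRNA listed at 0 in all libraries, with a fold of 5.43 in clf C24, 5.67 in clf F1 and 4.85 in clf Col. It lies next to the region chr1:17495182-17502519 of PUP19, a purine permease gene, which had peaks in all 3 clf lists and in both wild-type C24 lists. The next were chr5:15518795-15521681 with AT5G38747, chr5:15978962-15980998 with AT5G39900 and AT5G39910, chr4:5160252-5162244 with AT4G08160 and chr5:9018856-9020691 with AT5G25870. Their folds lay between 2.92 and 4.68 in the clf lists. AT5G39900 had 2.09, 1.57 and 1.82 RPKM and AT4G08160 2.23, 2.60 and 2.45 RPKM in C24 clf, clf F1 and Col clf.

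No pericentromeric region, and 1 arm region, was present in all 6 wild-type lists and absent from all 3 clf lists. With at least 4 wild-type lists and no clf list there were 16 in the windows (0.952%) and 66 in the arms (0.850%), a grouping chosen after the values were seen. The 5 widest of the 16 included chr5:15044557-15052255 with the aquaporin genes NIP4;1 and NIP4;2, and chr5:15033415-15040301 with RSL1, a basic helix-loop-helix gene of root hair development. In the NIP4;1 region the fold was 4.32 and 4.01 in wild-type C24, 3.70 and 2.54 in wild-type F1 and 2.53 in wild-type Col replicate 1, with no peak in wild-type Col replicate 2 or in any clf list. The RSL1 region showed the same presence and absence, with folds of 2.92 to 3.55 in the 5 wild-type lists. The others cover AT5G38390, cdc2cAt, a cyclin-dependent kinase gene, and AT4G08535.

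**Figure D4:**
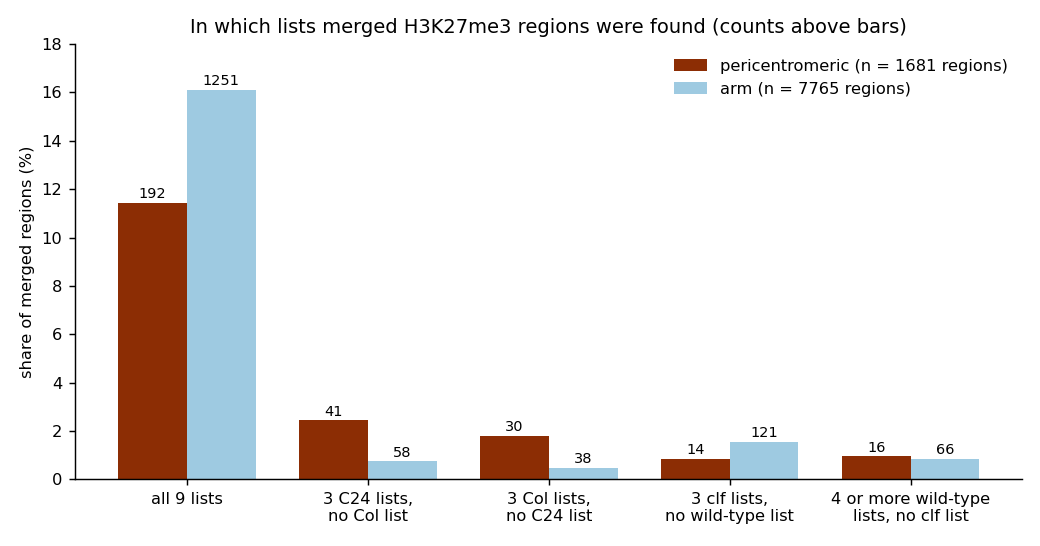
Share of merged regions (%) found in the named combinations of lists, for 1681 pericentromeric and 7765 arm regions, with counts above the bars. The share of regions in all 9 lists is lower in the windows, and the shares particular to C24 or to Col are higher.

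Regions particular to an accession made up more of the windows than of the arms. Regions in all 3 C24 lists and no Col list numbered 41 in the windows (2.44%) and 58 in the arms (0.747%), and regions in all 3 Col lists and no C24 list numbered 30 (1.78%) and 38 (0.489%). Without the chromosome 2 stretch the pericentromeric numbers were 40 (2.52%) and 28 (1.76%). A protein-coding entry lay in 73.2% of the C24 regions and in 73.3% of the Col regions of the windows. Since the reads were placed on Col sequence, a Col region absent from C24 can also be a stretch that C24 lacks.

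The hybrid carried most of these regions. Of the 41 C24 regions, 12 were in both wild-type F1 lists, 22 in 1 of them and 7 in neither, 30 were in clf F1, and 5 were in no F1 list. Of the 30 Col regions, 8 were in both wild-type F1 lists, 22 in 1 and 0 in neither, 24 were in clf F1, and each was in at least 1 F1 list. In the arms 11 of 58 C24 regions and 12 of 38 Col regions were in both wild-type F1 lists, and 6 and 0 were in no F1 list. The F1 lists do not separate the parental copies.

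Among the widest regions present in both wild-type C24 lists and in neither wild-type Col list, several carry members of gene families. The first, chr1:12230961-12239284, covers AT1G33750 and AT1G33760 and had folds of 6.2 in clf C24, 6.1 in clf F1 and 3.44 and 4.98 in wild-type C24, with no peak in a Col list. The others were the PUP19 region, chr5:10481747-10488859 with the beta-glucosidase gene BGLU24, chr3:10646349-10653059 with the transporter gene ABCB22, and chr3:16984845-16991354 with HSP17.4, a small heat shock protein. PUP19, ABCB22 and HSP17.4 had peaks in clf Col, at folds of 4.75, 4.58 and 4.27, so in these the contrast with Col was that of wild type. HSP17.4 mRNA averaged 5.55 RPKM in C24 clf, 1.82 RPKM in clf F1 and 2.25 RPKM in Col clf, with a log2 difference of 0.93 and a limma adjusted p of 0.0304 that was not below 0.05 without any of 5 single libraries of C24 clf or Col clf (0.0505 to 0.13). Over all its alternatives the adjusted p ran from 0.00308 to 0.159. All other genes of these regions with a value were at 0.34 RPKM or less.

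Widest among the regions present in both wild-type Col lists and in neither wild-type C24 list was chr1:16989148-16997019, with AT1G44940 and the microRNA gene MIR5025. Its fold was 5.71 in clf Col, 5.17 in clf F1, 4.23 in wild-type F1 replicate 1 and 3.16 and 2.36 in wild-type Col, and it had no peak in a C24 list. The others were chr3:16671583-16677906 with AT3G45450, chr5:10128472-10134765 with the pseudogene AT5G28145, chr3:11744706-11750632 with AT3G29970 and chr3:17050710-17056076 with AT3G46370. None of the 5 had a peak in clf C24, and all 5 had one in clf Col. AT3G46370 mRNA was listed at 0 in all 3 C24 clf libraries.

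The innermost zone held 224 merged regions, 30 of them in all 9 lists, and 20 of those 30 lay in the chromosome 2 stretch. The regions named here were chosen after their values were seen. The other 10 include MCT1, a gene of the MEI2-like RNA-binding family, at chr1:14169491-14174474, with folds of 8.53 in clf C24, 7.07 in clf F1 and 5.86 in clf Col, against 6.12 and 5.71 in wild-type C24, 4.2 and 3.7 in F1 and 3.59 and 2.92 in Col. Its mRNA was at 0.13 RPKM or less. AT2G08986 carried 2 such regions, AT2G10450, AT3G32040 and AT5G35110 carried 1 each, and none of these exceeded 0.24 RPKM in any library.

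Some of the other innermost regions held the most tag-rich peaks of a list. A region at chr3:14195256-14197756 contains the rRNA entry AT3G41768 and the protein-coding entry AT3G41762, and its neighbour at chr3:14200812-14204396 the non-coding entry AT3G06365. Its peak held 907.8, 1049.6 and 966.4 tags per kb in clf C24, clf F1 and clf Col, against 887.8 and 1073 in wild-type C24, 1053 and 1201 in F1 and 884.5 and 1153 in Col. It ranked first by tags per kb among all nuclear peaks in 6 of the 9 lists. Its tags per kb thus stayed between 884.5 and 1201, in lists whose tags in nuclear peaks ran from 840780 to 8266237.

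A region without any annotated entry at chr3:13588711-13592937 stood at 1.88 to 8.79 times the median pericentromeric tags per kb of its list. Another at chr4:3950142-3956082, on the pseudogene AT4G06700, stood at 1.06 to 5.63 times. In these and in the rRNA region the multiple was highest in wild-type C24 replicate 2, the list with the fewest tags in peaks. Reads with several positions in the genome, and copies missing from the reference, were not separated here, and their part in these peaks was not tested.

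The mRNA data allowed the genes under pericentromeric peaks of the mutants to be followed. Of 992 genes under a pericentromeric peak in clf C24 or clf Col, 810 were protein-coding. In each of the 9 mRNA libraries 23.0% to 25.1% of these 810 had at least 1 RPKM, against 48.9% to 50% of the 2358 pericentromeric protein-coding genes without such a peak. The ranges do not touch in any group: 24.2% to 24.4% in C24 clf, 23.0% to 25.1% in clf F1 and 23.2% to 23.5% in Col clf for genes under a peak. Values listed at 0 made up 50.1% to 55.6% with a peak and 38.9% to 42.4% without. Being members and non-members of 1 genome, the genes are not replicates, and these shares are given without a test.

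C24 clf and Col clf differ in accession and in clf allele together, so a difference between them can be assigned to neither. Of the 17819 genes tested over the whole genome, 44.5% passed limma's test at an adjusted p of 0.05. In C24 clf 31.8% were higher and 12.7% lower, and the median log2 difference was 0.13. Of the 992 genes under a pericentromeric peak, 226 passed the filter of at least 1 RPKM in at least 3 libraries. Of these 72 were higher (31.9%) and 58 lower (25.7%), and their median log2 difference was 0.02. Without the chromosome 2 stretch 72 were higher and 56 lower of 224. The share higher was thus near that of all genes and the share lower was above it. The filter limits this comparison, since 22.8% of the members passed it, against 54.0% of all genes. A mostly silent gene can pass through the group where it is high, so the 2 shares are not directly comparable. Genes under arm peaks had 34.7% higher and 19.7% lower, and pericentromeric genes without a peak 35.4% and 15.6%. Under quantile normalization, which gave all genes a median of 0.01, the members split into 61 higher and 72 lower (median -0.10), and all genes into 3833 higher and 3624 lower, so which direction had more calls depended on the scaling.

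In the windows the direction did not separate clearly by which list held the peak. Over all genes tested 31.8% were higher and 12.7% lower. Genes under a peak in clf C24 alone numbered 170, of which 40 were tested, with 14 higher (35%) and 9 lower (22.5%) in C24 clf and a median log2 difference of 0.15. Genes under a peak in clf Col alone numbered 192, of which 40 were tested, with 13 higher (32.5%) and 11 lower (27.5%) and a median of -0.04. Genes under a peak in both numbered 630, of which 146 were tested, with 45 higher (30.8%) and 38 lower (26.0%). For pericentromeric genes without a peak in either list, 454 were higher and 200 lower of 1283 tested (median 0.13), and for genes under arm peaks 796 were higher and 452 lower of 2296 tested. Genes under an arm peak in clf C24 alone had 103 higher (27.6%) and 92 lower (24.7%) of 373 tested. Those under an arm peak in clf Col alone had 125 higher (41.7%) and 39 lower (13%) of 300 tested, so in the arms the shares differed more.

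Among the 10 genes with the highest differences, AT2G05642, SADHU3-1, AT3G28320, LURP1 and AT3G28270 had peaks in C24 lists and in neither wild-type Col list. Of these, AT3G28320, LURP1 and AT3G28270 also had a peak in clf Col. The region of AT3G28270, chr3:10538347-10545758, had a fold of 6.34 in clf Col. It also held a peak of wild-type Col replicate 2 (fold 2.19) that did not reach the gene. AT2G05642 had 36.95, 43.98 and 44.71 RPKM in C24 clf, 20.65, 19.39 and 15.10 RPKM in clf F1 and 0.10, 0 and 0.02 RPKM in Col clf. The groups did not overlap, and the log2(RPKM + 1) difference was 5.36 (SE 0.116, limma adjusted p 1.07e-11). A peak covered the gene in clf C24, in both wild-type C24 lists and in wild-type F1 replicate 2, and in no Col list. SADHU3-1, a retroelement of the SADHU family, had 19.77, 16.16 and 14.85 RPKM in C24 clf and 9.42, 7.14 and 8.07 RPKM in clf F1, was listed at 0 in Col clf, and had peaks in clf C24, clf F1 and wild-type C24 replicate 1. AT3G28320 had 13.01, 14.69 and 15.30 RPKM in C24 clf and 5.54, 6.62 and 5.96 RPKM in clf F1, was listed at 0 in Col clf, and had peaks in all 3 clf lists, both C24 and both F1 wild-type lists, and neither wild-type Col list.

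LURP1, a gene needed for basal defence against downy mildew, behaved differently in the hybrid. It had 22.91, 36.92 and 24.62 RPKM in C24 clf, 1.48, 3.33 and 1.37 RPKM in clf F1 and 1.63, 5.39 and 2.39 RPKM in Col clf. C24 clf lay above both other groups, which overlapped. The difference of C24 clf against Col clf was 2.89 (SE 0.312, limma adjusted p 1.80e-05). Peaks covered the gene in all 3 clf lists, in both wild-type C24 and both F1 lists and in neither wild-type Col list. Its region, chr2:6209084-6216772, had folds of 6.75, 8.16 and 5.78 in clf C24, clf F1 and clf Col, and also held a peak of wild-type Col replicate 2 that did not reach the gene.

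The other 6 of the highest were AT5G35660, AT3G46500, AT3G28270, AT5G34871, AT3G44400 and AT5G25920, with log2 differences of 3.52, 2.97, 2.76, 2.45, 2.44 and 2.36. AT5G35660 had peaks in all 9 lists and uneven mRNA, with 24.32, 7.10 and 11.01 RPKM in C24 clf, 4.22, 0.29 and 1.87 RPKM in clf F1 and 0.19, 0.27 and 0.07 RPKM in Col clf. AT3G46500, AT5G25920 and AT5G34871 had a peak in clf Col and none in a C24 list. mRNA of AT3G46500 was 7.21 ± 0.901 RPKM in C24 clf, 2.55 ± 0.656 RPKM in clf F1 and 0.0433 ± 0.00577 RPKM in Col clf. That of AT5G25920 was 4.18 ± 0.277 RPKM in C24 clf, 1.53 ± 0.338 RPKM in clf F1 and 0.01 ± 0.0173 RPKM in Col clf (SD, n = 3 each for both genes). AT5G34871 had 12.64, 15.01 and 17.64 RPKM in C24 clf, 7.45, 5.23 and 8.27 RPKM in clf F1 and 1.83, 2.75 and 1.36 RPKM in Col clf.

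Of the 10 genes with the lowest differences, AT3G46370, AT2G06950, AT4G06534 and AT4G03500 were listed at 0 in all C24 clf libraries. AT3G46370, AT2G06950 and AT4G03500 also had no peak in any C24 list, while AT4G06534 had a peak in clf C24. Reads were placed on Col sequence, so a missing C24 transcript and a C24 sequence that differs or is absent cannot be told apart. AT3G46370 had 6.12, 6.64 and 5.32 RPKM in clf F1 and 15.76, 13.62 and 15.37 RPKM in Col clf, with peaks in clf Col, wild-type F1 replicate 1 and both wild-type Col lists. PMAT2, a malonyltransferase of phenolic glucosides, had 1.60, 1.31 and 1.19 RPKM in C24 clf, 5, 6.48 and 6.57 RPKM in clf F1 and 12.22, 14.01 and 13.34 RPKM in Col clf (log2 difference -2.59, SE 0.11, limma adjusted p 5.60e-09). Peaks covered PMAT2 in all 3 clf lists and in 5 wild-type lists, so its mRNA differed between mutants that both carried the mark. ZIP7, a metal transporter of the ZIP family, had 0.07 ± 0.0361 RPKM in C24 clf, 1.15 ± 0.365 RPKM in clf F1 and 2.90 ± 0.24 RPKM in Col clf (SD, n = 3 each), with peaks in all 3 clf lists.

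The others were AT4G09750, AT3G44970, the non-coding AT2G09795 and the rRNA entry AT3G41768, with log2 differences of -2.22, -2.03, -1.79 and -2.13. AT3G41768 varied far more than the rest, with 863, 825 and 483 RPKM in C24 clf, 1662, 6655 and 6562 RPKM in clf F1 and 3048, 6923 and 1362 RPKM in Col clf, in libraries enriched for polyadenylated RNA (limma adjusted p 0.0113, between 0.00251 and 0.0990 over its alternatives, the highest without the filter on low values). The clf F1 libraries lay between those of both parents in 8 of the 10 highest genes, with LURP1 and AT3G28270 as exceptions, and in 9 of the 10 lowest, with AT3G41768 as the exception. These counts describe genes chosen for their parental difference.

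**Figure D5:**
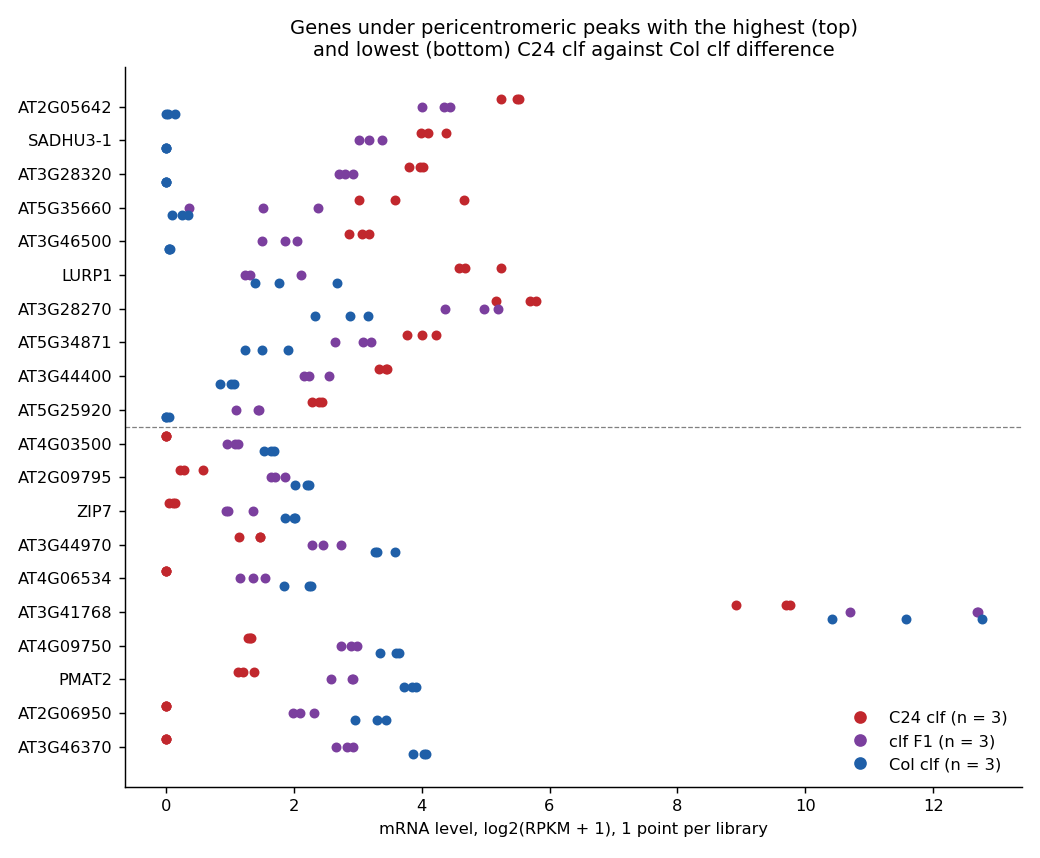
mRNA level, log2(RPKM + 1), of the 10 highest and 10 lowest genes under pericentromeric peaks by C24 clf against Col clf difference, 1 point per library, 3 libraries per group. The purple clf F1 points lie between the red C24 clf and blue Col clf points in most genes, with LURP1 at the level of Col clf and AT3G41768 as exceptions.

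Several groups of genes that lie in the windows were followed next. As background, 1254 of the 3168 pericentromeric protein-coding genes with an mRNA value (39.6%) had a peak in at least 1 of the 9 lists. Of 23 listed genes in or near the windows, taken as MADS-box genes, 20 lie in the windows, 9 had a peak in at least 1 list and 11 had none. One of them, NF-YC8, is a nuclear factor Y subunit and not a MADS-box gene, and had the highest fold of these genes, 13.2 in clf C24 within chr5:9939736-9941802. The 11 without a peak, among them AGL34, AGL36, AGL53, AGL90 and AGL93, all lie on chromosome 5 and were at 0.81 RPKM or less in every library. Peaks lay on AGL44, the nitrate-responsive root regulator also called ANR1, in all 3 clf and 5 wild-type lists, and on AGL95 in all 3 clf and 5 wild-type lists.

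STK, a MADS-box gene of ovule identity, was the member tested and it was higher in C24 clf. It had 2.99, 1.96 and 2.59 RPKM in C24 clf, 1.14, 1.25 and 1.28 RPKM in clf F1 and 0.24, 0.47 and 0.27 RPKM in Col clf (log2 difference 1.40, SE 0.127, limma adjusted p 4.36e-06). Its region chr4:6238795-6243074 had folds of 5.99 in clf C24, 4.86 in clf F1 and 4.31 in clf Col, against 4.44 in wild-type C24 replicate 2 and 2.08 in wild-type Col replicate 2, with no peak in the other wild-type lists. The 3 groups did not overlap in mRNA although a peak was called in all 3 mutants.

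Of 12 developmental regulators, 11 lie in the windows, 10 had a peak, and 5 were tested, with STK and KNAT1 higher and MYB0 and AN3 lower (median log2 difference 0.11), against 31.8% higher and 12.7% lower over all genes tested. KNAT1, the homeobox gene of stem and meristem, had 5.04, 4.78 and 6.15 RPKM in C24 clf, 2.70, 3.30 and 2.79 RPKM in clf F1 and 1.84, 2.19 and 2.5 RPKM in Col clf (log2 difference 0.99, limma adjusted p 3.28e-05). Its region chr4:5145889-5153794 had a peak in all lists but wild-type C24 replicate 1. MYB0, the trichome regulator GLABRA1, had 0.97, 0.94 and 0.88 RPKM in C24 clf, 0.88, 0.53 and 0.87 RPKM in clf F1 and 1.51, 1.38 and 1.77 RPKM in Col clf (log2 difference -0.40, limma adjusted p 0.0151, and 0.0102 to 0.0522 over its alternatives, the highest without C24 clf replicate 3).

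AN3, a transcriptional coactivator of leaf growth, had a peak in clf C24 and clf F1, at chr5:10648844-10650209, and in no other list. Its mRNA was 7.77, 7.71 and 7.29 RPKM in C24 clf, 9.53, 8.34 and 8.77 RPKM in clf F1 and 9.13, 9.74 and 8.71 RPKM in Col clf. The log2 difference was -0.25 with a limma adjusted p of 0.0245, which was not below 0.05 without C24 clf replicate 2 or 3 or Col clf replicate 1 or 2 (0.0509 to 0.0876), and was 0.00244 under quantile normalization. KAN2, a regulator of leaf polarity, had a log2 difference of 0.11 with a limma adjusted p of 0.523, and peaks in all 3 clf and 4 wild-type lists. NAC061, NF-YB7, AGL44, TCP16 and AT4G08250 had peaks in 1 to 3 clf lists and 1.09 RPKM or less throughout, and GATA23 had no peak.

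All 14 genes of the defence and metabolism list lie in the windows. Of them 12 had a peak and 13 were tested, with 4 higher and 4 lower in C24 clf (median log2 difference -0.11), beside the same 31.8% and 12.7% over all genes tested. TGG1 and TGG2, the myrosinases that break down glucosinolates, showed that a peak can lie on a strongly transcribed gene. TGG1 had 1810, 1949 and 1921 RPKM in C24 clf, 2081, 2136 and 2122 RPKM in clf F1 and 1390, 1397 and 1453 RPKM in Col clf (log2 difference 0.42, limma adjusted p 0.000124). TGG1 had a peak in all 3 clf and 4 wild-type lists, within chr5:9078192-9087503, with folds of 4.52, 4.78 and 4.39 in clf C24, clf F1 and clf Col. TGG2 had peaks in all 9 lists, within chr5:9070431-9078014, and 566 ± 70.3 RPKM in C24 clf, 775 ± 32.9 RPKM in clf F1 and 503 ± 17.8 RPKM in Col clf (SD, n = 3 each). Its log2 difference of 0.16 had a limma adjusted p of 0.136, and between 0.0217, with replicate number as a block, and 0.518 over its alternatives. Myrosinase genes are known for expression in a few cell types of the shoot, and whether a peak and a transcript share a cell cannot be told from whole shoots.

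PR1, the pathogenesis-related marker of salicylic acid signalling, had 2.30, 12.96 and 3.02 RPKM in C24 clf, 0.13, 5.12 and 0.33 RPKM in clf F1 and 0.16, 2.06 and 0.06 RPKM in Col clf. In each group the library numbered 2 was highest, and the same holds for LURP1. The log2 difference of 1.87 had a limma adjusted p of 0.0391. Leaving out C24 clf replicate 2 raised it to 0.148, leaving out Col clf replicate 1 to 0.103 and Col clf replicate 3 to 0.119. Over its alternatives the limma adjusted p ran from 2.28e-06, with replicate number as a block, to 0.193, without the filter. Peaks lay on PR1 in all 3 clf lists, at folds of 8.74, 10.3 and 9.52 in clf C24, clf F1 and clf Col, and in both C24 and both F1 wild-type lists at 3.66 to 5.35, within chr2:6240329-6242951. No peak lay on PR1 in either wild-type Col list, the same presence and absence as on LURP1.

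MSS1, the hexose transporter also called STP13, was lower in C24 clf, with 7.11, 7.59 and 8.77 RPKM, against 11.50, 8.26 and 9.43 RPKM in clf F1 and 14.50, 13.54 and 13.63 RPKM in Col clf (log2 difference -0.76, limma adjusted p 0.000187). LOX2, the lipoxygenase of jasmonate synthesis, was higher, with 259 ± 41.5 RPKM in C24 clf, 201 ± 63.5 RPKM in clf F1 and 145 ± 53.3 RPKM in Col clf (log2 difference 0.88, limma adjusted p 0.0110, and 0.0905 without the filter), and had a peak in wild-type C24 replicate 1 alone. The arginase gene ARGAH2 was listed at 0 in C24 clf and had 46.94, 27.75 and 26.02 RPKM in clf F1 and 91.51, 64.09 and 51.68 RPKM in Col clf. A single wild-type Col list had a peak on it. The near-identical tandem pair AT3G28290 and AT3G28300, which can share reads, had no peak and was at 0.56 RPKM or less in C24 clf and at 9.97 RPKM or more in Col clf.

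MSRB6, a methionine sulfoxide reductase, had a log2 difference of -0.39 with a limma adjusted p of 0.102, which ran from 0.00368, with replicate number as a block, to 0.380 over its alternatives, and peaks in all 3 clf and 5 wild-type lists. The nitrilase genes NIT1 and NIT3 and the basic pathogenesis-related gene PRB1 had limma adjusted p of 0.603, 0.229 and 0.534. AIG1, a gene induced in resistance responses, had peaks in all 3 clf and 4 wild-type lists and did not pass the filter. Of the SADHU elements only SADHU3-1 had a peak in any list, while SADHU3-2, at 18.1 ± 2.17 RPKM in C24 clf, 9.72 ± 0.585 RPKM in clf F1 and 0.387 ± 0.253 RPKM in Col clf (SD, n = 3 each), and SADHU1-1, listed at 0 in C24 clf and at 62.8 RPKM or more in Col clf, had none.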

How the data were processed

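ChIP-seq peak lists of 9 shoot libraries and mRNA values of 9 shoot libraries were used. Reads were placed on TAIR10, and the submitters' processing notes list Bowtie and TopHat without versions. No label or file header names the peak caller or an input control. Per the file headers each deposited peak has a tag count, a score and a fold enrichment, all made by the authors. The header of the score column was lost, and every deposited score is at least 50. The deposited mRNA values are RPKM per gene, computed by the authors, whose read totals were not analysed here. RPKM summed to 728341 to 767004 per library, and 32992 genes remained after 1141 of the 34133 lines of each file were dropped because they repeat an ID.

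Peaks were assigned to windows or arms by midpoint with Python 3.11.15, numpy 2.4.6, pandas 2.3.3 and scipy 1.17.1, and figures were drawn with matplotlib 3.10.9. Gene entries came from the RefSeq table of TAIR10.1, which matched 97.7% of the RPKM genes. As a check of positions, 79.1% of peak summits lay in a protein-coding entry, against 42.8% to 58.5% after shifts of 1000 to 5000 bases. An overlap needed 1 base. Groups of lists were compared with exact permutation tests over libraries and zones with exact sign-flip tests within lists, both two-sided, with Benjamini-Hochberg adjustment within each family. mRNA was tested with limma 3.58.1 in R 4.3.3 on log2(RPKM + 1) with an intensity trend, for genes of at least 1 RPKM in at least 3 libraries, with adjustment over 17819 genes. The steps were also run on simulated data, which is no evidence for the results given here. For limma the simulated libraries varied independently, so that run does not cover the pairing of same-numbered libraries described below.

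Members, gene lists and tests were chosen with earlier results of these data known. The text names the 10 genes with the highest and the 10 with the lowest log2 difference among those past the threshold under a pericentromeric peak of clf C24 or clf Col, with libraries that do not overlap between groups, and regions as the widest of each class, 10 for all 9 lists and 5 for the others. Whether replicates are separate cultures is not labelled. The p-values therefore cover only how these libraries vary, which may be technical. Same-numbered mRNA libraries deviated together in all 9 pairs (r from 0.169 to 0.426, against -0.275 to -0.00203 for other pairs), so the number pairs them. Deviations cancel out within a group, so negative r for the other pairs is no separate evidence. The main limma fit leaves this pairing out, and the replicate block takes it in. No pair of lists shared an identical peak. Alternatives were a higher score threshold, narrower windows, other overlaps, chromosome 4 or the chromosome 2 stretch left out, other filters and scaling, the replicate block and single libraries left out. GC content and sequence were not analysed here, because no genome was at hand.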

Additional observations from a re-analysis of the deposited data

Results flagged for a closer look

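The contrast between pericentromeric and arm genes, in percentage points of protein-coding genes under a peak, was -1.23 in wild-type Col replicate 1, far from the other 5 wild-type lists, at 0.0367 to 0.786. Of 11 groups of lists or libraries examined in this way, this was the outlying value, and chance alone gives about 1 in 20 groups. The same list has the most tags in nuclear peaks, 8266237, and their part in the contrast was not tested.

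The same contrast differed between genotypes, with -1.20 ± 0.235 in clf (SD, n = 3) and 0.154 ± 0.741 in wild type (SD, n = 6), a difference of -1.36. The exact permutation p was 0.0476 and, adjusted over 5 contrasts, 0.238, so it did not pass the correction. It was negative in 3 of 3 clf lists and positive in 5 of 6 wild-type lists.

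Peaks were also called on the organelle genomes, which entered no comparison. The lists held 9 to 25 such peaks, with 25 in wild-type C24 replicate 2, of which 1 was plastid and 24 mitochondrial, and 9 in wild-type F1 replicate 1. No control sample for these peaks was analysed here. The list with 9 was also the one with the fewest peaks in the chromosome 2 stretch, 57.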

How the results depend on the processing

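Of 243 alternative values for the 16 results that answer a comparison, 195 were rated unchanged. Where a result had a test, this meant the same direction and the same side of the threshold. Retention in clf and the mRNA counts have no threshold, and there unchanged meant close to the main value. The wild-type comparisons of C24 with Col and of F1 with its parents cannot pass, so their side was fixed. For 50 named genes, 655 values stayed on their side of the threshold, 20 no longer passed and 5 passed anew. Genes past the threshold in the main fit kept their direction throughout. The direction of the others was not counted, and that of KAN2 turned under quantile normalization. The lower pericentromeric share in clf had the same sign in every alternative run. For the share of peaks it was -2.10 with the 2879 highest-scoring peaks of each list, -1.74 against wild-type replicate 1 lists alone and -2.02 against replicate 2 lists alone, and -1.95 to -1.82 with single lists left out. For bases the last 3 were -1.78, -1.79 and -1.98 to -1.51, and for tags -1.42, -4.18 and -3.16 to -2.09, with -2.07 in narrowed windows (exact permutation p = 0.167, n = 3 and 6). Without a clf list, or with 1 replicate set, the design cannot pass.

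For C24 against Col the difference was -0.113 at a score of at least 100 and -0.553 in narrowed windows. For F1 against its parents it was 0.0640 without the chromosome 2 stretch. Within lists, fold enrichment differed by a log2 ratio of 0.0266 without the stretch and 0.0607 in the 6 wild-type lists. Tags per kb differed by -0.0681 at a score of at least 100, -0.0701 in narrowed windows and -0.116 in the wild-type lists. The share of genes under a peak differed by -3.37 in narrowed windows, -1.02 without the stretch, 0.0181 without chromosome 4 and 0.154 in the wild-type lists. Replicate overlap differed by -4.83 without the stretch. The share without a counterpart in the other accession differed by 8.81 to 9.81 with single lists left out and 10.2 in the 4 wild-type lists, where 5 or 4 lists are too few for the test to pass. Retention in clf differed by -3.80 to -1.03 with single lists left out, where all peaks of the remaining wild-type replicate stood in for those called in both. The cause of these changes was not tested, apart from the fewer lists.

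mRNA calls of members numbered 37 higher and 36 lower (73 of 126 tested, with 44.6% of all genes called) with a filter of 5 RPKM, 43 and 33 (76, with 44.5%) with at least 0.5 of the gene under the peak, 102 and 82 without the filter (23.4%), and 114 to 130 with single libraries left out. With the replicate block they numbered 83 and 66 (53.6%), and the block turned the calls of MSRB6 and TGG2 alone among the named genes. The labels give the replicate number of the lists no meaning, although all 3 wild-type replicate 2 lists stop at a score of 3100. With a replicate block the difference between C24 and Col was 0.306 (exact permutation p = 0.5, n = 2 each) and that between F1 and its parents -0.291 (exact permutation p = 0.444, n = 2 and 4). Tags per list ran from 840780 to 8266237. The list with the fewest had 6314 peaks and that with the most 4837, and the part of depth in the peak numbers was not tested.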
